A study of Rattus norvegicus with 20 samples.

Results

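Genes of the cell cycle and of DNA replication were examined in rat liver after 24 days of feeding with 1 of 3 chemopreventive compounds or with the plain diet. The set was a list of 35 genes, taken by symbol and with no threshold on measured values, that runs from G1 cyclins through the replication machinery to the mitotic spindle. Of the 35, 33 had at least 1 probe set under their name, 47 probe sets in all among the 31042 of the array; Gins2 and Rrm2 had none. Female Sprague Dawley rats ate the supplier's mash diet with a supplement or, as controls, without one, 5 rats per diet and 1 liver array per rat. The BNF rats received 5,6-benzoflavone at 1650 mg per kg of diet, a ligand of the aryl hydrocarbon receptor. The D3T rats received the unsubstituted dithiole-thione at 600 mg per kg, and the OLT rats received oltipraz, a derivative of D3T whose ring carries pyrazinyl and methyl substituents, at 500 mg per kg. The labels give 1 dose and 1 time for each compound. Values are log2 summaries of probe sets made by the authors with GCRMA, on which a step of 1 is a doubling.

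Hepatocytes of an adult liver rest outside the cell cycle and can re-enter it after tissue loss, injury or exposure to liver mitogens. Re-entry begins with D-type cyclins and Cdk4, which release E2F factors. These raise cyclin E and the enzymes of DNA synthesis. Later the genes of mitosis, among them Cdk1, the B cyclins and the spindle proteins, are transcribed together. The MCM helicase, PCNA and thymidine kinase serve as common markers of S phase, Mki67 and Top2a of cycling cells at large, while Cdkn1b (p27) is an inhibitor that holds resting cells in G1.

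The arrays labelled D3T 5 and OLT 1 resembled the other dithiolethione group more than their own. The mean correlation of the D3T 5 array was 0.979 with the OLT arrays and 0.968 with the other D3T arrays, and that of the OLT 1 array was 0.966 with the D3T arrays and 0.963 with the other OLT arrays. Calls of cell cycle genes in D3T or OLT livers against control are therefore given with and without these 2 arrays. All 9 hepatocyte markers with a probe set passed the filter on low values described next, and their summed level, the log2 of the sum of linear values, lay between 17.96 and 18.26 in the supplemented groups and between 17.74 and 18.24 in control livers.

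Most of these genes were not measurable above background in any diet group. A probe set passed when its log2 value exceeded 4 in at least 5 of the 20 arrays, since values under about 4 lie at the level that GCRMA leaves for unexpressed genes. By this filter 10 of the 33 genes passed (30.3%), against 7837 of 14217 genes on the whole array (55.1%), and 12 of the 47 probe sets. The share was highest for G1 regulators and lowest for mitotic regulators. Ccnd1, Cdk4, Ccne2 and Cdkn1b passed among 6 genes of G1 and S phase control, Mcm7 and Pcna among 7 of the helicase and clamp, and Tk1 among 3 of DNA precursor synthesis. Of 12 genes of mitotic entry and exit only Cks2 passed, and of 5 chromosome and spindle genes Top2a and Nusap1. No gene passed through values of a single diet group alone. Top2a stood at the limit, with values above 4 in 1 BNF, 2 D3T, 3 OLT and 1 control array, whereas Mki67 stayed just under it, with values above 4 in 4 arrays. Nusap1 and Ccne2 exceeded 4 in all 20 arrays but averaged only 4.26 and 4.56. Only 6 genes, Ccnd1, Cdk4, Cdkn1b, Mcm7, Pcna and Cks2, also passed a stricter filter, a value above 6 in at least 5 arrays.

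**Figure D1:**
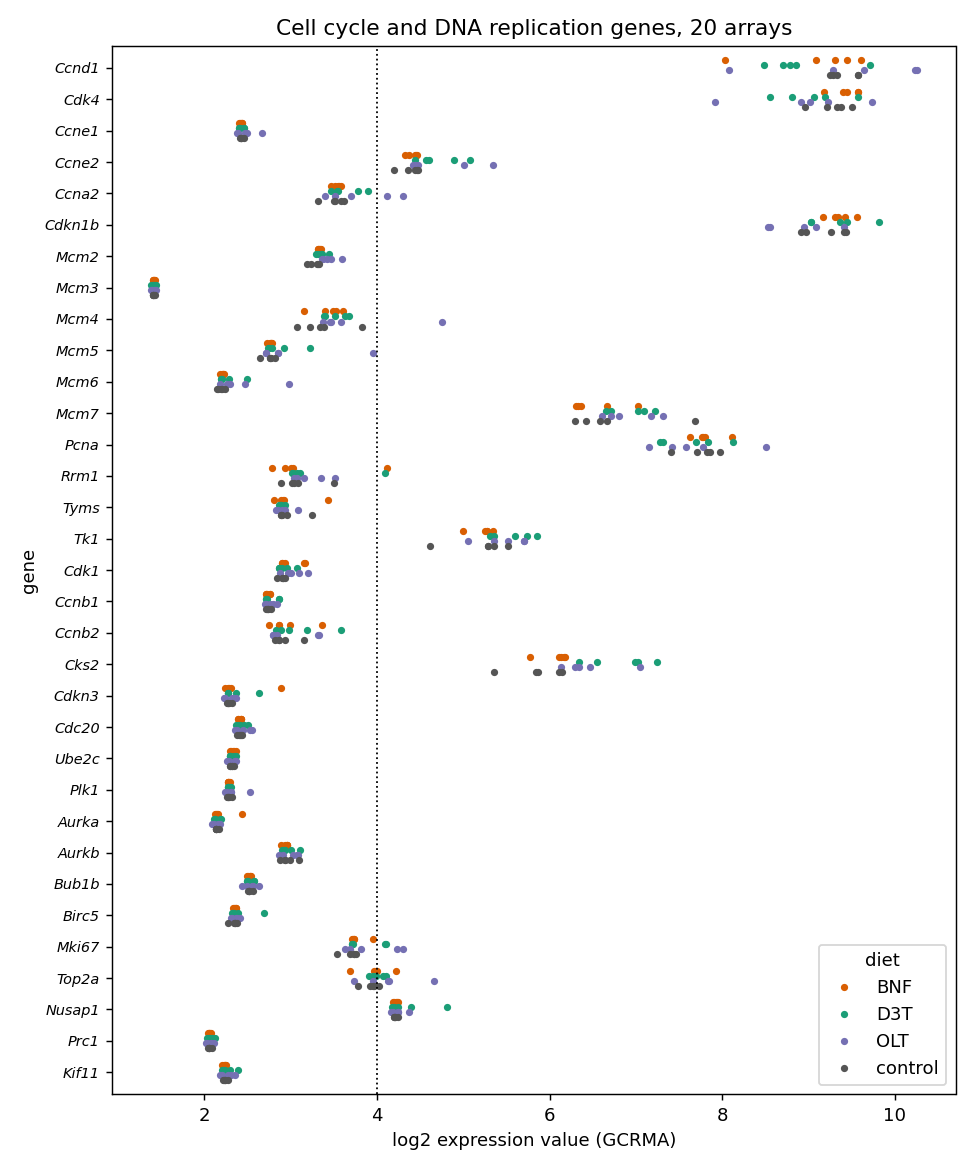
Log2 expression values (horizontal axis) of the 33 genes with a probe set (rows, 1 probe set per gene), 1 point per array, coloured by diet; the dotted line marks the value of 4. The points of 23 genes lie mostly or wholly left of the line in every diet, and the 6 genes that passed the stricter filter lie well right of it.

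For 19 of the 23 genes that did not pass, every value in every array was under 4, between 1.38 and 3.95. Cdk1, the kinase that drives mitotic entry, read 2.90 to 3.17 in BNF livers, 2.86 to 3.07 in D3T livers and 2.88 to 3.20 in OLT livers, against 2.84 to 2.94 in control livers. The groups of Cdk1 values overlapped. Its partners Ccnb1 and Ccnb2, the kinases Plk1, Aurka and Aurkb, the anaphase factors Cdc20 and Ube2c, the checkpoint kinase Bub1b and the survivin gene Birc5 also never reached 4. Neither did Cdkn3, a phosphatase that acts on cyclin-dependent kinases, nor Prc1 and Kif11, which organise spindle microtubules. The same held for the helicase subunits Mcm2, Mcm3, Mcm5 and Mcm6, for thymidylate synthase (Tyms), and for cyclin E1 (Ccne1). In 4 genes 1 or more arrays exceeded 4. They were Mki67 in 4 arrays, the S phase cyclin Ccna2 in 2 (OLT 1 and OLT 3), the ribonucleotide reductase subunit Rrm1 in 2 (BNF 1 and D3T 4), and Mcm4 in 1 (OLT 5, with 4.75). None of these single readings was in a control array. Mki67 averaged 3.77 ± 0.10 in BNF livers, 3.87 ± 0.21 in D3T livers and 3.93 ± 0.31 in OLT livers, against 3.69 ± 0.09 in control livers (SD, n = 5 each).

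Some of the low values were highest in arrays with a high background level. That level, the median of the 18095 probe sets that did not pass the filter, was highest in the arrays labelled D3T 2 (2.69), OLT 3 (2.68), OLT 1 (2.67) and D3T 3 (2.66), and lay between 2.54 and 2.64 in the other 16. Mki67 read 4.09, 4.23, 4.30 and 4.11 in these 4 arrays, in the same order, which are the only arrays where it exceeded 4. The mean over the 23 low genes ran from 2.63 to 2.78 in BNF livers, from 2.63 to 2.77 in D3T livers and from 2.63 to 2.81 in OLT livers, against 2.59 to 2.68 in control livers. In D3T livers 20 of the 23 low genes averaged higher than in control livers, but so did 83.7% of all probe sets under the filter. In OLT livers the figures were 21 of 23 and 81.9%, and in BNF livers 17 of 23 and 37.5%. With the background level of each array subtracted, 13 of the 23 averaged higher in D3T and in OLT livers and 15 in BNF livers, beside 44.0%, 44.9% and 34.2% of all probe sets under the filter in D3T, OLT and BNF livers. Of the low genes the array labelled OLT 5 held the highest value for Mcm4 (4.75), Mcm6 (2.98) and Cdk1 (3.20). Its background level, 2.54, was nevertheless the lowest of all arrays. The array labelled BNF 1 had a mean of the low genes of 2.78 at a background level of 2.61. That of D3T 4 was 2.71 at a background level of 2.57.

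**Figure D2:**
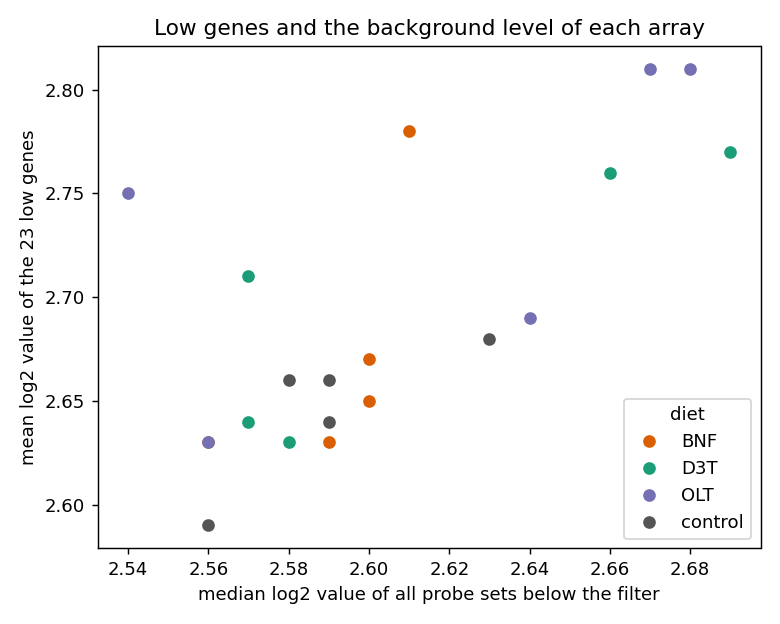
Mean log2 value of the 23 genes that did not pass the filter (vertical axis) against the median log2 value of all probe sets that did not pass (horizontal axis), 1 point per array, coloured by diet. BNF 5 and OLT 4 share 1 point. The arrays with a background level of 2.66 or more hold high means for the low genes, and OLT 5, at the lowest background level, has a mean of 2.75.

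Comparison of each supplemented diet with control asked whether the treated livers carried more or less message for the cell cycle. Among the 10 genes that passed, 1 was called by limma in D3T livers, the rise of Cks2, and 0 were called in BNF or OLT livers (adjusted p under 0.05 over all 12947 probe sets that passed; at an unadjusted p under 0.05 there were 3 in D3T, 0 in BNF and 2 in OLT livers). Of all probe sets that passed, 4.63% were called higher and 11.6% called in either direction between D3T and control, so 1 gene of 10 is near the background share; 6.97% were called lower. The shares of probe sets called were 3.48% for BNF (1.46% higher and 2.02% lower) and 6.38% for OLT (1.53% higher and 4.85% lower). The split depends on scaling. With each array centred on its median, 289 probe sets were higher and 212 lower in BNF livers, 1227 higher and 718 lower in D3T livers and 635 higher and 497 lower in OLT livers, beside 189 and 261, 599 and 903, and 198 and 628 as deposited. The median difference of the 10 genes was 0.03 in BNF, 0.15 in D3T and 0.14 in OLT livers, beside -0.06, -0.02 and -0.05 for all genes that passed. Over the 33 genes with a probe set the medians were 0.02, 0.07 and 0.05.

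The 95% intervals show what size of change in the readings the arrays could have missed. Between BNF and control they lay within a 2-fold change in either direction for 9 of the 10 genes, and the exception was Ccnd1, whose interval reached -1.05. Between OLT and control 9 of 10 lay within it as well, with Cks2 reaching a 2.01-fold rise. Between D3T and control 8 of the 9 genes that were not called lay within it, and Ccnd1 reached -1.24. Among the 23 genes under the filter, none passed an adjusted p of 0.05 when limma was run on all 31042 probe sets without a filter (lowest adjusted p 0.0950, for Mcm2 between OLT and control). Mcm2 read 3.60, 3.36, 3.37, 3.47 and 3.42 in OLT livers, against 3.19, 3.33, 3.32, 3.24 and 3.31 in control livers, without overlap and with a difference of 0.17 (95% interval 0.07 to 0.26). Mki67 differed by 0.18 (-0.08 to 0.43) between D3T and control. These intervals describe values at the background level of the arrays. Those of Top2a, Nusap1 and Ccne2, which passed with means of 4.01, 4.26 and 4.56, describe values near it. A narrow interval there does not bound the change in message.

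**Figure D3:**
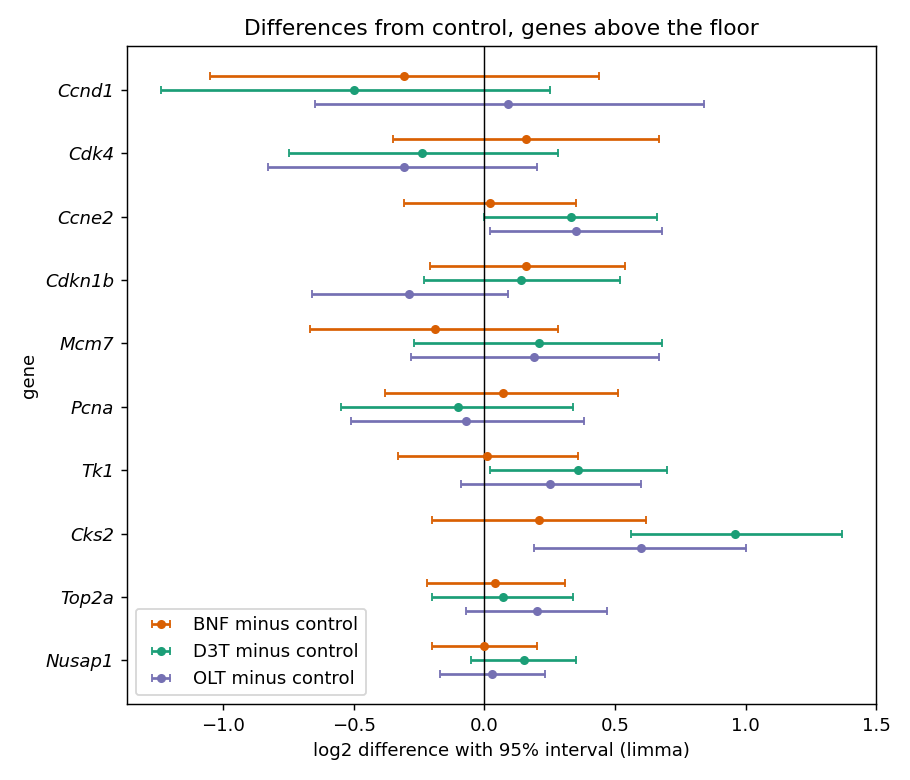
Log2 differences from control (horizontal axis) with 95% intervals from limma for the 10 genes that passed the filter (rows), for BNF, D3T and OLT livers (5 arrays each, against 5 control arrays). The D3T interval of Cks2, 0.56 to 1.37, lies farthest from 0, and most other intervals cross 0.

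Cyclin D1 (Ccnd1) and its kinase Cdk4 start the passage through G1. Ccnd1 read 9.61, 8.03, 9.45, 9.31 and 9.09 in BNF livers, 8.70, 8.86, 8.49, 8.79 and 9.71 in D3T livers and 8.08, 10.23, 9.28, 9.64 and 10.26 in OLT livers, against 9.25, 9.57, 9.58, 9.33 and 9.29 in control livers. Control livers lay close together, whereas OLT livers spread on both sides of them, with a SD of 0.89 in OLT and 0.16 in control livers. The differences from control were -0.31 in BNF, -0.50 in D3T and 0.09 in OLT livers (SE 0.35 each), with adjusted p of 0.797, 0.405 and 0.899. In D3T livers 4 of the 5 arrays lay below every control array, and the array labelled D3T 5 lay above all of them. Without the arrays labelled D3T 5 and OLT 1 the difference between D3T and control was -0.70 (SE 0.26, adjusted p = 0.0915). The other 2 probe sets of Ccnd1 that passed gave -0.39 and -0.13 in D3T livers, neither called. Cdk4 averaged 9.44 ± 0.16 in BNF, 9.04 ± 0.39 in D3T and 8.96 ± 0.67 in OLT livers, against 9.28 ± 0.20 in control livers (SD, n = 5 each), and its adjusted p was 0.461 or higher in all 3 comparisons.

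Cyclin E2 (Ccne2), which works with Cdk2 at the start of S phase, lay just above the filter. It averaged 4.41 ± 0.06 in BNF, 4.72 ± 0.26 in D3T and 4.74 ± 0.41 in OLT livers, against 4.39 ± 0.11 in control livers (SD, n = 5 each). The differences of 0.33 in D3T and 0.35 in OLT livers (SE 0.16 each) were not called, with adjusted p of 0.191 and 0.194. Its highest readings, 5.34, 5.08, 5.01 and 4.89, were in OLT 3, D3T 3, OLT 1 and D3T 2, the 4 arrays with the highest background level. The part of that level in these differences was not tested beyond the values given here.

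Cdkn1b, the G1 inhibitor p27, read 9.56, 9.17, 9.34, 9.31 and 9.42 in BNF livers, 9.45, 9.03, 9.03, 9.82 and 9.36 in D3T livers and 8.95, 8.55, 8.53, 9.09 and 9.41 in OLT livers, against 9.41, 8.97, 8.91, 9.26 and 9.43 in control livers. All groups overlapped, and the lowest 2 readings of the series were in OLT livers. The differences were 0.16 in BNF, 0.14 in D3T and -0.29 in OLT livers (SE 0.18 each), and none was called (adjusted p = 0.780, 0.655 and 0.345).

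The helicase and clamp genes above the filter, Pcna and Mcm7, stayed within the spread between rats. Pcna, the sliding clamp of the replicative polymerases that also serves DNA repair, read 7.78, 7.63, 7.80, 7.77 and 8.12 in BNF livers, 7.84, 7.31, 7.28, 8.13 and 7.70 in D3T livers and 7.42, 7.58, 7.15, 7.78 and 8.51 in OLT livers, against 7.86, 7.71, 7.41, 7.83 and 7.97 in control livers. Groups overlapped throughout. Its differences from control were 0.07 (95% interval -0.38 to 0.51) in BNF, -0.10 (-0.55 to 0.34) in D3T and -0.07 (-0.51 to 0.38) in OLT livers. The small negative values of Pcna in D3T and OLT livers turned positive, to 0.04 and 0.10, when each array was centred on its median, which moved the median difference of all genes by 0.15 in D3T and by 0.17 in OLT livers, and to 0.02 and 0.09 after quantile normalization. Mcm7, a subunit of the replicative helicase, averaged 6.54 ± 0.31 in BNF, 6.94 ± 0.25 in D3T and 6.92 ± 0.30 in OLT livers, against 6.73 ± 0.55 in control livers (SD, n = 5 each). The control spread of Mcm7 came from the array labelled control 1, at 7.69 beside 6.30 to 6.67 in the other 4. Without that array Mcm7 differed by 0.04 in BNF, 0.45 in D3T and 0.43 in OLT livers, with adjusted p of 0.988, 0.132 and 0.215.

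Thymidine kinase 1 (Tk1), which salvages thymidine for DNA synthesis, averaged 5.23 ± 0.14 in BNF, 5.58 ± 0.24 in D3T and 5.47 ± 0.27 in OLT livers, against 5.21 ± 0.34 in control livers (SD, n = 5 each). The difference in D3T livers, 0.36 (SE 0.16), was not called (adjusted p = 0.168). It was 0.21 (adjusted p = 0.411) without the array labelled control 1, where Tk1 read 4.62 beside 5.29 to 5.52 in the other control arrays. Further probe sets of Tk1 read 2.61 to 2.74 and 1.94 to 3.90 and did not pass.

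Cks2 (gene ID 498709), a small subunit that binds cyclin-dependent kinases including Cdk1, was the gene of the set that changed most from control. It read 7.02, 6.55, 6.99, 7.25 and 6.34 in D3T livers, against 6.14, 5.36, 5.84, 5.87 and 6.11 in control livers. Every D3T value lay above every control value. Of all probe sets that passed, 9.77% likewise had no overlap between D3T and control, counting both directions. Cks2 rose by 0.96 in D3T livers (SE 0.19, adjusted p = 0.00338), a 1.95-fold change. A single probe set measured it, and whether that probe set also binds transcripts of close copies of the gene was not checked. Without the arrays labelled D3T 5 and OLT 1 the rise was 1.09 (adjusted p = 0.00137), and over all 21 alternatives it lay between 0.84 and 1.11 with an adjusted p between 0.000432 and 0.0177.

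In OLT livers Cks2 read 6.34, 6.29, 6.47, 6.13 and 7.05, and in BNF livers 6.18, 6.13, 5.77, 6.17 and 6.11. The lowest OLT value, 6.13, was just under the highest control value, 6.14, and BNF values overlapped with control. The OLT difference from control was 0.60 (SE 0.19) with an adjusted p of 0.0740, so it was not called. It was called when each array was centred on its median (0.76, adjusted p = 0.0141) and after quantile normalization (0.72, adjusted p = 0.0149), and not in the other 19 alternatives (0.45 as the lowest difference, 0.185 as the highest adjusted p). The BNF difference was 0.21 (95% interval -0.20 to 0.62, adjusted p = 0.716).

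Top2a, the topoisomerase that untangles sister chromosomes, averaged 3.97 ± 0.19 in BNF, 4.00 ± 0.08 in D3T and 4.13 ± 0.34 in OLT livers, against 3.93 ± 0.09 in control livers (SD, n = 5 each). Its highest reading, 4.66, was in the array labelled OLT 3, and no difference was called (adjusted p of 0.372 or higher). Nusap1, a microtubule protein of the spindle, kept within 4.16 to 4.39 in 19 arrays and read 4.81 in D3T 4. Its differences from control, 0.00 in BNF, 0.15 in D3T and 0.03 in OLT livers, were not called, and the signs in BNF and OLT livers turned with quantile normalization. A second probe set of Nusap1 read 2.33 to 2.48 over all arrays, and that of Top2a 3.49 to 4.10, and neither passed.

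**Figure D4:**
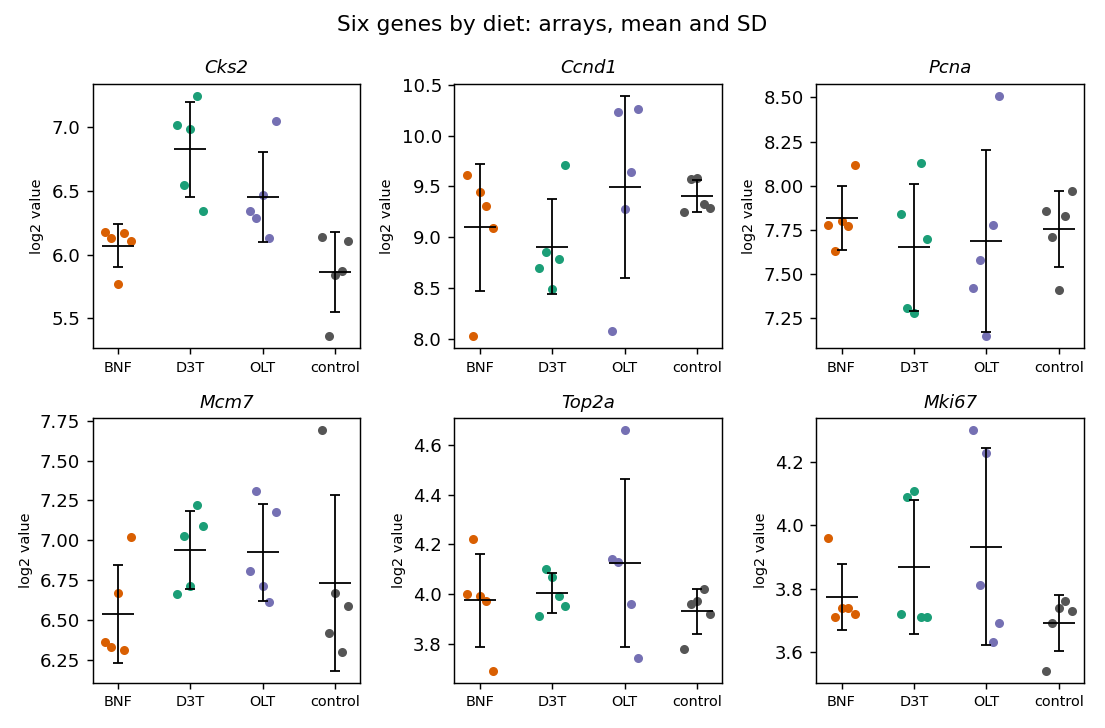
Log2 values (vertical axes, own scale per gene) of Cks2, Ccnd1, Pcna, Mcm7, Top2a and Mki67 by diet; points are arrays and bars give the mean and SD of 5 arrays. All 5 D3T values of Cks2, from 6.34 to 7.25, lie above the control values, which end at 6.14, while the diet groups overlap for the other 5 genes.

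Within diets the 10 genes did not vary as 1 block. Of their 45 pairs, 5 had a correlation above 0.5 over the 20 arrays with diet means subtracted and 5 had one below -0.5. Cdkn1b and Pcna stood at 0.87, and Pcna and Top2a at -0.78. All 5 pairs below -0.5 held Ccne2 or Top2a, 2 genes near the floor of 4. The part of the background level in these pairs was not tested. Across the same arrays, the genes that varied most like Cks2 among 7836 others were Rps6ka3 (r = 0.84), Hells (r = 0.82), Zfyve1 (r = 0.82), Tnfsf10 (r = 0.81) and Icam2 (r = 0.80); these correlations describe arrays that share a normalization and carry no test. Hells, a chromatin remodeller of proliferating cells that was in the list of other replication genes, read 6.49, 5.01, 5.50, 7.03 and 5.01 in D3T livers and 4.56, 4.41, 4.43, 4.98 and 7.35 in OLT livers, against 4.73, 4.06, 4.45, 4.45 and 5.55 in control livers. The arrays with high Hells (D3T 1, D3T 4 and OLT 5) also had high Cks2, at 7.02, 7.25 and 7.05, which restates that correlation. D3T 3 had a Cks2 value of 6.99 with Hells at 5.50. The difference of Hells between D3T and control was 1.16 (SE 0.50) and was not called (adjusted p = 0.151). Cks1b, the paralog of Cks2, averaged 9.39 ± 0.47 in D3T livers and 8.99 ± 0.11 in control livers (SD, n = 5 each), a difference of 0.40 that was not called (adjusted p = 0.139).

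Markers of other cells moved with some of these groups. In bulk tissue, fewer cells of a type and less RNA per cell cannot be told apart. Of 6 erythroid markers with a probe set 2 passed the filter, and both rose in D3T and OLT livers. Alas2, the erythroid enzyme of heme synthesis, rose by 1.93 in D3T livers (SE 0.40, adjusted p = 0.00405) and by 1.84 in OLT livers (SE 0.40, adjusted p = 0.00968), and the globin gene Hbb averaged 13.85 ± 0.34 in D3T and 13.94 ± 0.40 in OLT livers, against 12.84 ± 0.55 in control livers (SD, n = 5 each; adjusted p = 0.0212 and 0.0206). The summed erythroid level ran from 13.51 to 14.36 in D3T livers and from 13.53 to 14.41 in OLT livers, against 12.12 to 13.57 in control livers, while Epb42, Rhag, Slc4a1 and Ahsp did not pass the filter. Among D3T livers the array labelled D3T 5 had the highest Alas2 (9.39) and the lowest Cks2 (6.34). The part of erythroid cells in the rise of Cks2 was not tested.

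In BNF livers, where no gene of the set was called, markers of stellate cells and macrophages were higher than in control livers. Of 12 stellate cell and fibroblast markers 9 passed and 4 rose, among them Col1a1 by 2.45 (adjusted p = 0.00101), with a summed level of 12.00 to 12.76 in BNF livers and 11.14 to 11.71 in control livers. Of 13 macrophage and Kupffer cell markers, which all passed, 2 rose, and 12 of the 13 averaged higher, with a median difference of 0.97. Their sums, 12.52 to 13.58 in BNF and 11.88 to 12.60 in control livers, overlapped. Besides Col1a1 the stellate cell markers that rose were Col1a2 (0.85), Col3a1 (0.95) and the proteoglycan gene Dcn (1.99). The macrophage markers were Tyrobp and Laptm5 (0.93 each). Of 13 lymphocyte and NK cell markers 3 passed and 1 rose, with sums of 11.56 to 12.36 in BNF and 10.10 to 11.22 in control livers. Cd3d, Cd3g, Cd2, Cd8a, Cd4, Cd79b, Ms4a1, Nkg7, Gzmb and Lck did not pass. Cd74, which passed, alone read 11.48 to 12.28 in BNF and 9.91 to 11.12 in control livers, so these sums mainly follow Cd74. Of 7 endothelial markers that passed 0 were called, but all 7 averaged higher in BNF than in control livers, with a median difference of 0.71. In D3T and OLT livers no marker of these lists was called higher. The actin gene Acta2 fell by 0.88 in D3T livers (adjusted p = 0.00469), with every D3T value below every control value. Of the 9 stellate cell and fibroblast markers that passed, 6 averaged higher in D3T than in control livers, with a median difference of 0.07. The scavenger receptor gene Cd163 fell by 1.46 in OLT livers (adjusted p = 0.0254), where only 1 of the 13 macrophage markers averaged higher than in control livers and their median difference was -0.48.

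The promoters of Cks2, Cdk1, Top2a, Mki67 and Pcna are shown because Cks2, a gene of the mitotic group, passed the filter and rose in D3T livers while Cdk1, Top2a and Mki67 stood at or under the floor of detection, and Pcna as a replication gene well above it. Genes of late cell cycle are known to be held down in resting cells through the cell cycle homology region (CHR, here the letters TTTGAA) and to be activated through CCAAT boxes bound by NF-Y. The 250 bases before each transcription start are given 5′ to 3′ from RefSeq on rat build GRCr8, with matches to CCAAT and TTTGAA on either strand in capitals. They lie at chr17:13727520-13727769 (minus strand), chr20:19265043-19265292 (plus strand), chr10:84473094-84473343 (minus strand), chr1:199952594-199952843 (minus strand) and chr3:139955821-139956070 (minus strand). The choice of the 4 genes beside Cks2 was made with their values known.
Cks2: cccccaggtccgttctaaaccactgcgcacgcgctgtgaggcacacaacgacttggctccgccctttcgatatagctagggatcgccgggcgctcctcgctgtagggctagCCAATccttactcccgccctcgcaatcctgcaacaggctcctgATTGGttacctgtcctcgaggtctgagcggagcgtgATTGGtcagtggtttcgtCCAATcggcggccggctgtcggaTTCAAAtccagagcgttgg
Cdk1: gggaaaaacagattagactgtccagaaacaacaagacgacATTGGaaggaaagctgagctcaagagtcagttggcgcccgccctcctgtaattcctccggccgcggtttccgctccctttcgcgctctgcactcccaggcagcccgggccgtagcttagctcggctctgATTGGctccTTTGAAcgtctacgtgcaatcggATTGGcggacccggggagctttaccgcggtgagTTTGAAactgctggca
Top2a: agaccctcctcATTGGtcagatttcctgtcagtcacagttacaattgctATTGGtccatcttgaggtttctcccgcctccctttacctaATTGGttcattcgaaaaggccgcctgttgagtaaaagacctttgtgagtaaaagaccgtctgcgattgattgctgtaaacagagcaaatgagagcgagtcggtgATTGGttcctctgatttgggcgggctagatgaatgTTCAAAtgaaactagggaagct
Mki67: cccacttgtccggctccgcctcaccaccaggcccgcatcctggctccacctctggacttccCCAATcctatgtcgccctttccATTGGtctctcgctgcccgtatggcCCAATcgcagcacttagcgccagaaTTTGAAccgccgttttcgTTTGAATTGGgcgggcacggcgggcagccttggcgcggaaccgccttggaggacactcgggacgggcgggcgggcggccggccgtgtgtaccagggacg
Pcna: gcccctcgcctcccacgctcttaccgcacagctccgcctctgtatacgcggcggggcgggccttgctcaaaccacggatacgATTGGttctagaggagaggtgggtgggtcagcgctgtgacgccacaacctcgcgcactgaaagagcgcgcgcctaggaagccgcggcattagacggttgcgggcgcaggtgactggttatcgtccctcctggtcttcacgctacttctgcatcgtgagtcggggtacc

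The Cks2 promoter held 4 CCAAT matches, the nearest beginning 42 bases before the start, and 1 TTTGAA match beginning 19 bases before it. Top2a held the same pair of motifs in a similar place, with 4 CCAAT matches and 1 TTTGAA match at 22 bases before the start. Cdk1 held 3 CCAAT and 2 TTTGAA matches, and Mki67 held 4 and 2, of which 1 pair shares letters. Pcna held 1 CCAAT match and no TTTGAA. These matches are letters in a window and are not evidence of binding.

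Of the 35 genes 28 had a promoter in the RefSeq table used; Ccnd1, Ccne2, Ccna2, Mcm4, Rrm2, Ube2c and Aurkb did not. CCAAT was found in 21 of the 28, against 34.3% of 27457 rat promoters of the same length, and TTTGAA in 10 of 28, against 16.0%. The E2F-type letters TTTNNCGC were found in 8 of 28, against 4.35%, and TGACNNNGC, the core of the antioxidant response element through which Nrf2 acts, in 3 of 28, against 10.2%. Both strands were searched. The Cks2 window held neither TTTNNCGC nor TGACNNNGC. The 20 promoters outside the genes that passed the filter include that of Gins2, which had no probe set. Among these 20, 15 held CCAAT and 8 held TTTGAA, and among the 8 of genes that passed, 6 and 2 did.

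Between the supplemented diets, Cks2 was lower in BNF than in D3T livers, by a difference of -0.76 (SE 0.19, adjusted p = 0.0129), and their values did not overlap. Of all probe sets that passed, 12.2% had no overlap between BNF and D3T, counting both directions. Cks2 was the only 1 of the 10 genes called there, where 8.70% of all probe sets were called lower, 6.24% higher and 14.9% in either direction. Without the arrays labelled D3T 5 and OLT 1 the difference was -0.88 (adjusted p = 0.00561). No gene of the 10 was called by limma between BNF and OLT, where 9.62% of probe sets were called, 5.33% higher and 4.29% lower (1 gene at an unadjusted p under 0.05). D3T and OLT differ in structure and were fed at different doses, 600 and 500 mg per kg, so their values stand side by side. Between OLT and D3T limma called 0 of the 10 genes (1 at an unadjusted p under 0.05) and 0.00% of all probe sets, whereas 549 of the 12947 probe sets were called once the arrays labelled D3T 5 and OLT 1 were left out. Cks2 differed between OLT and D3T by -0.37 with a 95% interval of -0.78 to 0.04. Ccnd1 differed by 0.59 (95% interval -0.15 to 1.33, adjusted p = 0.596) between OLT and D3T, and by 1.14 (SE 0.28, adjusted p = 0.0251) without the arrays labelled D3T 5 and OLT 1, where it passed the threshold. These 2 arrays were singled out because they resembled the other dithiolethione group, so leaving them out widens differences between OLT and D3T by construction, and neither the 549 probe sets nor the value of Ccnd1 is a test of that difference. The 4 remaining D3T arrays then read 8.49 to 8.86 and the 4 remaining OLT arrays 9.28 to 10.26.

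Other genes of the same pathways were read from a list of 166, of which 147 had a probe set and 52 passed the filter. In D3T livers 2 rose and 3 fell, in OLT livers 2 rose and 1 fell, and in BNF livers 1 rose. With each array centred on its median the counts were 4 higher and 1 lower in D3T, 7 higher and 1 lower in OLT and 2 higher in BNF livers. The shares of all probe sets called in these comparisons with values as deposited are the 11.6%, 6.38% and 3.48% given above. With centred arrays 1945, 1132 and 501 of the 12947 probe sets were called, in the same order. The shares that passed were 12 of 26 other G1 regulators, 15 of 41 other replication genes, 16 of 63 other mitosis genes and 9 of 17 growth signals and immediate early genes. The medians of the 52 were 0.05 in BNF, 0.06 in D3T and 0.09 in OLT livers.

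Among mitosis genes Tubb5, a beta-tubulin of the cytoskeleton and the spindle, read 9.23, 8.40, 9.27, 8.73 and 8.92 in D3T livers and 8.74, 8.83, 8.03, 8.31 and 9.20 in OLT livers, against 8.05, 7.79, 7.74, 7.69 and 7.81 in control livers. All D3T values lay above all control values, and 1 OLT value, 8.03, lay within the control range. Tubb5 rose by 1.09 in D3T livers (SE 0.20, adjusted p = 0.00132) and by 0.80 in OLT livers (SE 0.20, adjusted p = 0.0191). The D3T rise was smaller, 0.78 (adjusted p = 0.00613), when the probe sets of Tubb5 that passed were averaged. With the arrays labelled D3T 5 and OLT 1 left out, the D3T rise was 1.09 (adjusted p = 0.00293) and the OLT difference was 0.78 and missed the threshold (adjusted p = 0.0515). BNF livers read 8.51, 8.74, 8.18, 8.44 and 8.59, all above the control values, and the difference of 0.68 was not called (adjusted p = 0.0650). The kinetochore gene Cenpk rose by 0.41 in OLT livers (SE 0.12, adjusted p = 0.0431), from values near the floor, and was not called without OLT 1, OLT 2, OLT 3 or OLT 4, nor without control 1, control 2 or control 5 (adjusted p from 0.0572 to 0.117), nor without the arrays labelled D3T 5 and OLT 1 together (0.36, adjusted p = 0.116).

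Among replication genes Rpa1, the large subunit of the single-strand DNA binding complex, read 8.58, 8.06, 7.89, 8.57 and 6.86 in D3T livers, against 7.51, 6.95, 6.32, 6.74 and 7.30 in control livers. Of the D3T arrays 4 lay above every control array and D3T 5 lay within the control range. Rpa1 rose by 1.03 (SE 0.30, adjusted p = 0.0304) and was not called when any 1 of control 2, control 3, control 4, D3T 1, D3T 2, D3T 3 or D3T 4 was left out (differences from 0.87 to 1.05, adjusted p from 0.0558 to 0.0760), nor without a filter (adjusted p = 0.0723) or with only the arrays of the 2 groups (adjusted p = 0.0881). The rise was 1.31 (adjusted p = 0.00296) without the arrays labelled D3T 5 and OLT 1, 1.17 (adjusted p = 0.00393) with centred arrays and 1.15 (adjusted p = 0.00497) after quantile normalization. Top1, the topoisomerase that relaxes supercoils ahead of forks and polymerases, fell by 0.53 in D3T livers (SE 0.14, adjusted p = 0.0170), to 9.62 ± 0.22 in D3T livers against 10.15 ± 0.26 in control livers (SD, n = 5 each). That fall was not called without control 5 (adjusted p = 0.0544), nor after centring (-0.39, adjusted p = 0.146) or quantile normalization (-0.48, adjusted p = 0.0638), nor with only the arrays of the 2 groups (adjusted p = 0.0504). It was -0.58 (adjusted p = 0.00887) without the arrays labelled D3T 5 and OLT 1. When the probe sets of Top1 that passed were averaged, the difference was -0.77 (adjusted p = 0.00403). Cdkn1a, the inhibitor p21, fell by 0.73 in D3T livers to the floor, at 3.93 ± 0.26 in D3T livers against 4.66 ± 0.53 in control livers (SD, n = 5 each; adjusted p = 0.0490). Leaving out any 1 of control 2, control 4, control 5, D3T 1, D3T 2, D3T 3 or D3T 4 ended that call (adjusted p from 0.0663 to 0.139), and so did centring (-0.58, adjusted p = 0.135). With the difference at -0.73 the call was also lost without a filter (adjusted p = 0.108), without the intensity trend (0.0521), with a robust prior (0.0505) and with only the arrays of the 2 groups (0.0836). It was -0.78 (adjusted p = 0.0470) when the arrays labelled D3T 5 and OLT 1 were both omitted.

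Jun and Junb code for subunits of the AP-1 transcription factor that is induced early when hepatocytes leave rest. Jun read 9.07, 8.25, 8.49, 8.15 and 8.45 in D3T livers and 8.10, 8.35, 7.80, 9.12 and 9.40 in OLT livers, against 10.47, 11.47, 10.71, 10.49 and 10.47 in control livers. Every value of both dithiolethione groups lay below every control value. Jun fell by 2.24 in D3T livers (SE 0.28, adjusted p = 4.90e-05) and by 2.17 in OLT livers (SE 0.28, adjusted p = 0.000186), or by 2.23 and 2.06 with the arrays labelled D3T 5 and OLT 1 left out, and averaged 10.78 ± 0.32 in BNF livers against 10.72 ± 0.43 in control livers (SD, n = 5 each). Junb read 6.44, 8.18, 6.21, 6.54 and 6.72 in BNF livers, against 5.20, 5.44, 5.21, 5.25 and 5.21 in control livers, without overlap. It rose by 1.56 in BNF livers (SE 0.33, adjusted p = 0.0105). In D3T livers Junb read 5.45, 5.25, 5.27, 6.50 and 6.21, and in OLT livers 6.34, 5.45, 5.39, 5.38 and 6.35. Some of these values lay within the BNF range, and neither group was called higher than control. Between the diets, Jun was higher in BNF than in D3T livers by 2.30 and than in OLT livers by 2.23 (SE 0.28 each; adjusted p = 1.93e-05 and 5.30e-05). Egr1, another immediate early transcription factor, named here after its values were seen, averaged 5.96 ± 0.38 in BNF livers, against 4.30 ± 0.82 in D3T and 4.36 ± 0.67 in OLT livers (SD, n = 5 each; adjusted p = 0.00510 and 0.00978). Control livers averaged 5.21 ± 0.56 for Egr1. Igfbp1, a binding protein of insulin-like growth factors that hepatocytes secrete and that was chosen in the same way, averaged 7.93 ± 0.81 in BNF livers, against 10.18 ± 0.99 in D3T and 10.02 ± 0.74 in OLT livers (SD, n = 5 each; adjusted p = 0.00573 and 0.0138). Control livers averaged 9.43 ± 0.94 for Igfbp1, and neither gene was called against control in any diet (lowest adjusted p 0.123). These calls of Jun in both dithiolethione groups and of Junb in BNF livers against control were kept under all 21 alternatives.

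**Figure D5:**
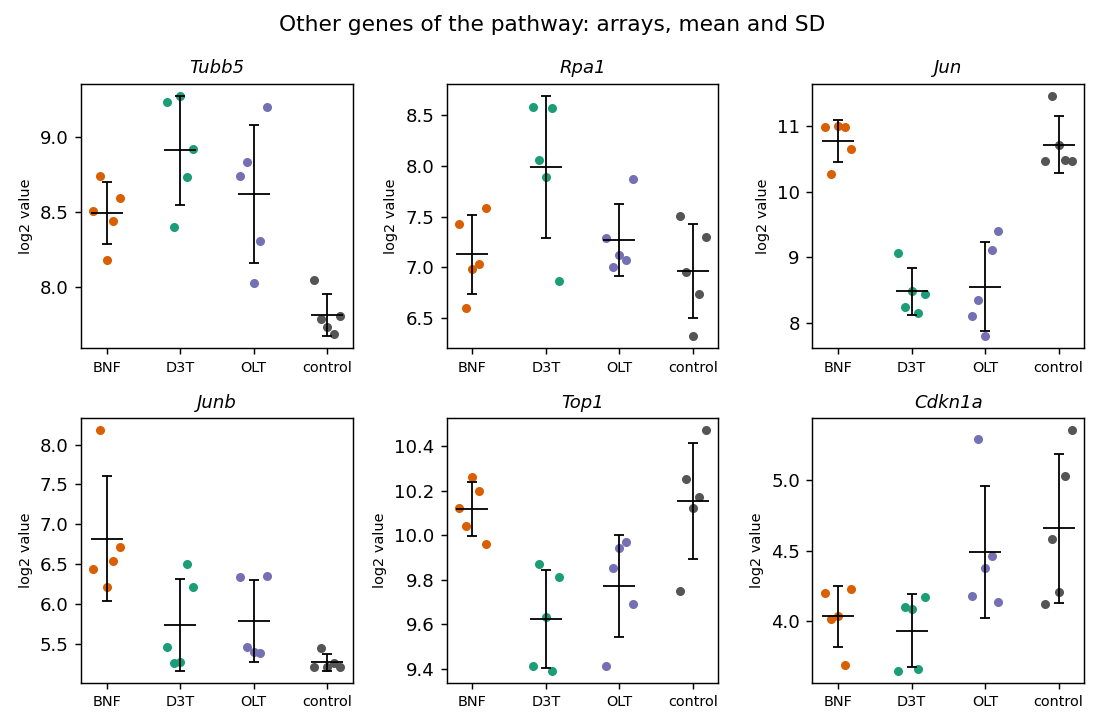
Log2 values (vertical axes, own scale per gene) of Tubb5, Rpa1, Jun, Junb, Top1 and Cdkn1a by diet; points are arrays and bars give the mean and SD of 5 arrays. Jun lies between 7.80 and 9.40 in the dithiolethione groups and at 10.47 or more in control livers, and the BNF values of Junb, from 6.21 to 8.18, lie above the control values, which end at 5.44.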

How the data were processed

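Liver RNA of 20 rats was hybridized to 1-colour Affymetrix arrays, 5 per diet. Per the submitters' processing notes the deposited log2 values were made by the authors with GCRMA, a method that subtracts a background modelled from probe sequence, normalizes the arrays together and gives 1 summary per probe set. The version is not given in the sources used here. They lie between 0.08 and 16.46 and were used as deposited. Arrays have no read depth, and the number of arrays limits the precision. Scan dates are not given in the sources used here.

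Probe sets were named from the platform annotation, updated by gene ID through the RefSeq gene table of assembly GRCr8 (20758 of 20826 probe sets with 1 gene; 436 with several genes and 9780 with none name no gene here). A gene was represented by its probe set with the highest mean among those that passed the filter, or among all where none passed. All 4 diets entered 1 fit in limma 3.58.1 (R 4.3.3), lmFit and eBayes with an intensity trend, two-sided, with Benjamini-Hochberg adjustment over 12947 probe sets; called means an adjusted p under 0.05. Nothing in the labels ties equal replicate numbers together, so no block was used. P-values measure the spread between these rats. The method was tested on simulated arrays.

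The genes, the lists of other pathway genes and of cell markers, and the tests were chosen with earlier results of these data known. The text names every gene of the set and up to 4 called genes per direction of each list of other pathway genes; Egr1, Igfbp1 and the cell markers were named after their values were seen. Alternatives covered scaling, filter, prior, samples in the fit, the replicate number, probe set averaging, 2 arrays left out, the interquartile range as covariate, and each array left out; subtracting the background level was added after the data were seen.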

Additional observations from a re-analysis of the deposited data

Results flagged for a closer look

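Among 40 sets of 5 arrays (10 genes that passed the filter in 4 diets) 4 had a value far from the other 4 by Dixon's criterion; chance flags about 1 set in 20. Cks2 read 5.77 in the array labelled BNF 3, beside 6.11 to 6.18 in the other BNF arrays. Tk1 read 5.00 in BNF 4, beside 5.25 to 5.35. Mcm7 read 7.69 in control 1, beside 6.30 to 6.67 in the other control arrays, and Tk1 read 4.62 in the same array, beside 5.29 to 5.52. Without BNF 3 the difference of Cks2 between BNF and D3T was -0.68 and was still called (adjusted p = 0.0376). Without control 1 the difference of Mcm7 between BNF and control was 0.04, against -0.19 with it, and that of Tk1 was -0.13, against 0.01 with it; none of these was called.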

How the results depend on the processing

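The rise of Cks2 in D3T over control livers and its lower level in BNF than in D3T livers were called under all 21 alternatives of each comparison. Called genes of the set numbered 2 instead of 1 between D3T and control (Ccne2 added, 0.34, adjusted p = 0.0271), 4 instead of 1 between BNF and D3T (Ccne2, Pcna and Tk1 added) and 2 instead of 0 between BNF and OLT (Ccne2 and Cdkn1b) with the interquartile range of each array as a covariate. Of the 4, 1 was higher and 3 lower in BNF livers, and of the 2, 1 was higher and 1 lower. That covariate also raised the calls over all 12947 probe sets, to 2225, 3556 and 2568 from 1502, 1935 and 1246, in the same order. Centring and quantile normalization each gave 1 instead of 0 between OLT and control (Cks2), and quantile normalization gave 1 between BNF and OLT (Cdkn1b, 0.41, adjusted p = 0.0493). Over all probe sets, centring and quantile normalization gave 1132 and 1157 calls between OLT and control, against 826 as deposited. Between BNF and OLT quantile normalization gave 1786, against 1246 as deposited. With the replicate number as a block 1 gene was called between BNF and OLT (Cdkn1b, 0.45, adjusted p = 0.0344), and no other call on these genes changed. Correlations of deviations between arrays of equal number ran from -0.27 to 0.30 (median 0.06) and of unequal number from -0.47 to 0.61, so the numbers were not taken as pairs. Without the arrays labelled D3T 5 and OLT 1 Ccnd1 was called between OLT and D3T, 1 instead of 0. Leaving out 1 array at a time gave 1 in D3T versus control and in BNF versus D3T, 0 in BNF versus control, OLT versus control and OLT versus D3T, and 0 to 1 in BNF versus OLT (Cdkn1b without OLT 5, 0.58, adjusted p = 0.0360). Of the other pathway genes, the count of 1 between BNF and control was 2 after centring, quantile normalization or with only the 2 groups and 3 with the covariate, and 1 to 2 with single arrays left out. The count of 5 between D3T and control was 3 without a filter and 2 with only the 2 groups, and 3 to 7 with single arrays left out (3 without control 2, control 5, D3T 1, D3T 2 or D3T 3). The count of 3 between OLT and control was 8 after centring and 5 with probe sets averaged or with the covariate, and 2 to 5 with single arrays left out (5 without OLT 5). The causes were not tested. Differences of genes under the filter lie at the background level, which limits what they show.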
